A study of Homo sapiens with 22 samples.

Results

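Called ATAC-seq peaks were examined at 8 genes whose products write or erase methylation of lysine 36 of histone H3 (H3K36), other than NSD2. The genes are the methyltransferases NSD1, NSD3, ASH1L and SETD2 and the demethylases KDM2A, KDM2B, KDM4A and KDM4C. They were chosen by name from 19974 protein-coding genes on the autosomes and X. All 8 were covered by a peak in at least 2 libraries and were tested. The question was whether accessible chromatin at these genes differed when NSD2 was degraded, or in the libraries labelled TKO.

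ATAC-seq marks open chromatin by the insertion of a transposase. The 22 libraries come from KMS11 and KMS34, established multiple myeloma lines in which the t(4;14) translocation places NSD2, and FGFR3, under control of the immunoglobulin heavy chain locus. Each of 11 groups holds 2 libraries: each line at day 0, each line at days 4 and 10 in DMSO, each line at days 4 and 10 in NSD2LDD, and KMS11 TKO at day 0. NSD2LDD is the agent used to degrade NSD2, at a concentration not given in the sources used. All libraries but the TKO pair are labelled with the t(4;14) genotype, and what TKO stands for is likewise not given. Nothing says whether the duplicates are separate cultures, so each p-value reflects the scatter of these libraries only. The peak lists held 24979 to 52518 peaks: 24979 to 39002 in KMS11 other than TKO, 26887 and 30699 in TKO, and 34165 to 52518 in KMS34. The shortest list is replicate 2 of day 0 KMS11, the control of the TKO comparison. Of 7 plasma cell markers, 6 were covered in all 22 libraries. The B cell gene MS4A1 and the T cell gene CD3D were covered in none, while PAX5, CD2 and the endothelial gene CDH5 were covered in all 22. Summed over the 7 plasma cell markers the covered length was 5248 to 14398 bp in KMS11 other than TKO, 7475 to 11139 bp in TKO and 12837 to 24062 bp in KMS34. The part of this difference in the results between the lines was not tested. No list holds read counts, so depth is unknown and a peak that was not called may be one too shallow to call.

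NSD2 is the dimethyltransferase for H3K36 that t(4;14) myeloma overexpresses. NSD1 and NSD3 are its paralogs, and ASH1L also makes H3K36 mono- and dimethylation. SETD2 makes the trimethylated form and travels with elongating RNA polymerase II. KDM2A and KDM2B are CxxC zinc finger proteins that bind CpG islands and remove mono- and dimethylation of H3K36. KDM4A and KDM4C remove trimethylation from H3K9 and H3K36.

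Peaks at listed start sites were examined for 7 of the genes, and the starts of NSD3 were not analysed here. RefSeq (GRCh38.p14) lists 15 start sites for NSD1, ASH1L, SETD2, KDM2A, KDM2B, KDM4A and KDM4C, and 7 of them (46.7%) lay in a peak in all 22 libraries. The share was 42.2% over 22132 listed starts of protein-coding genes. At least 1 start was covered in all 22 libraries for ASH1L, SETD2, KDM2A, KDM2B, KDM4A and KDM4C. For NSD1 the best covered starts were called in 21 of 22, and its first 2 listed starts in none. The authors' -log10 q ranks each peak within its own list. The peak over the internal KDM2A start ranked in the top 4.12% of its list (median of 22 libraries, range 1.65% to 15.4%). The peak over the NSD1 starts ranked at a median of only 64.8% (21 libraries, 49.1% to 90.4%).

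SETD2 and KDM2A had starts with a peak in all 22 libraries and are not shown. The 250 bases before the start are shown for 4 other genes with such a start. They are from RefSeq (GRCh38.p14), 5′ to 3′ on the gene's strand. ASH1L is at chr1:155562804-155563053 (minus strand) and its capitals mark a GC box. KDM2B is at chr12:121467379-121467628 (minus strand), an internal start that gives a shorter transcript, with GC boxes in capitals. KDM4A is at chr1:43649899-43650148 (plus strand), with CCAAT boxes in capitals, read here on the opposite strand. KDM4C is at chr9:6757723-6757972 (plus strand), with E-boxes and an overlapping AP-1 motif in capitals.
ASH1L: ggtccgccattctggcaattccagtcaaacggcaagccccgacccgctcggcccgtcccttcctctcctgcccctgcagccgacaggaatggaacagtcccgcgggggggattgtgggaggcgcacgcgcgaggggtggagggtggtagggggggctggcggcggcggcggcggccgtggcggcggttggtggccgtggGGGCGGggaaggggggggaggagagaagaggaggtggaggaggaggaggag
KDM2B: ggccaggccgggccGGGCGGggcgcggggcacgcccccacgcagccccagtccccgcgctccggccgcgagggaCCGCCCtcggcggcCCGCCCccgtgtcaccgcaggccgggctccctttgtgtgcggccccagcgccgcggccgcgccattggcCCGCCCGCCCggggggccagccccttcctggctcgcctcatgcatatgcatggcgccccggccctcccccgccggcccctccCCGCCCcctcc
KDM4A: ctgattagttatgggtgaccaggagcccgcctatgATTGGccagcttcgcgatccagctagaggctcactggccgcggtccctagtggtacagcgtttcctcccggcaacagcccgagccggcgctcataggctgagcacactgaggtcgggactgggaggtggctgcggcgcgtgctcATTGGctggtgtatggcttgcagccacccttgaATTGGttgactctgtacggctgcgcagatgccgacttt
KDM4C: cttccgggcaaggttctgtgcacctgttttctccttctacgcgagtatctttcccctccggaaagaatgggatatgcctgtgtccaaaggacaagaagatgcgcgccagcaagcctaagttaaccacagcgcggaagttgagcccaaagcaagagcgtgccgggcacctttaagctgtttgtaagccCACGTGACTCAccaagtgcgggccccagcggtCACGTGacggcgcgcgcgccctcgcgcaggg
Motifs were searched on both strands in 21943 promoters of 300 bases, 250 before and 50 after the start. The E-box (CACGTG) occurred 2 times at KDM4C, and 0.839% of all promoters held at least 2. One of the pair overlaps the AP-1 motif (TGACTCA or TGAGTCA), which 4.02% of promoters held. The CCAAT box (CCAAT) occurred 3 times at KDM4A, against 3.61% of promoters with at least 3. The GC box (GGGCGG) occurred 6 times at KDM2B, some of them overlapping, against 3.8% of promoters with at least 6. ASH1L held 1, as did 56.3% of promoters at least once. The counts at KDM2B, KDM4A and KDM4C were the highest of their motifs among the 15 listed starts, so the shares stand beside picked values. A match describes these letters only.

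Accessible length was counted as the bases under called peaks within the gene body and 5 kb either side. Per kb of that window the order of the medians over 22 libraries was KDM4A (26.8 bp per kb), NSD3 (21.4), KDM2B (17.1), KDM2A (14.4), ASH1L (12.3), NSD1 (9.51), SETD2 (9.14) and KDM4C (7.89). Neighbours in this order overlapped across libraries. The 2 lines placed the genes differently: ASH1L was at 19.4 ± 5.78 bp per kb in KMS11 and 7.45 ± 1.94 in KMS34 (mean ± SD, n = 6 day 0 and DMSO libraries each). KDM2B was at 14.2 ± 4.08 and 22.9 ± 5.39. KDM4C, the longest of the 8 genes at 454.786 kb, had the least covered length per kb.

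**Figure D1:**
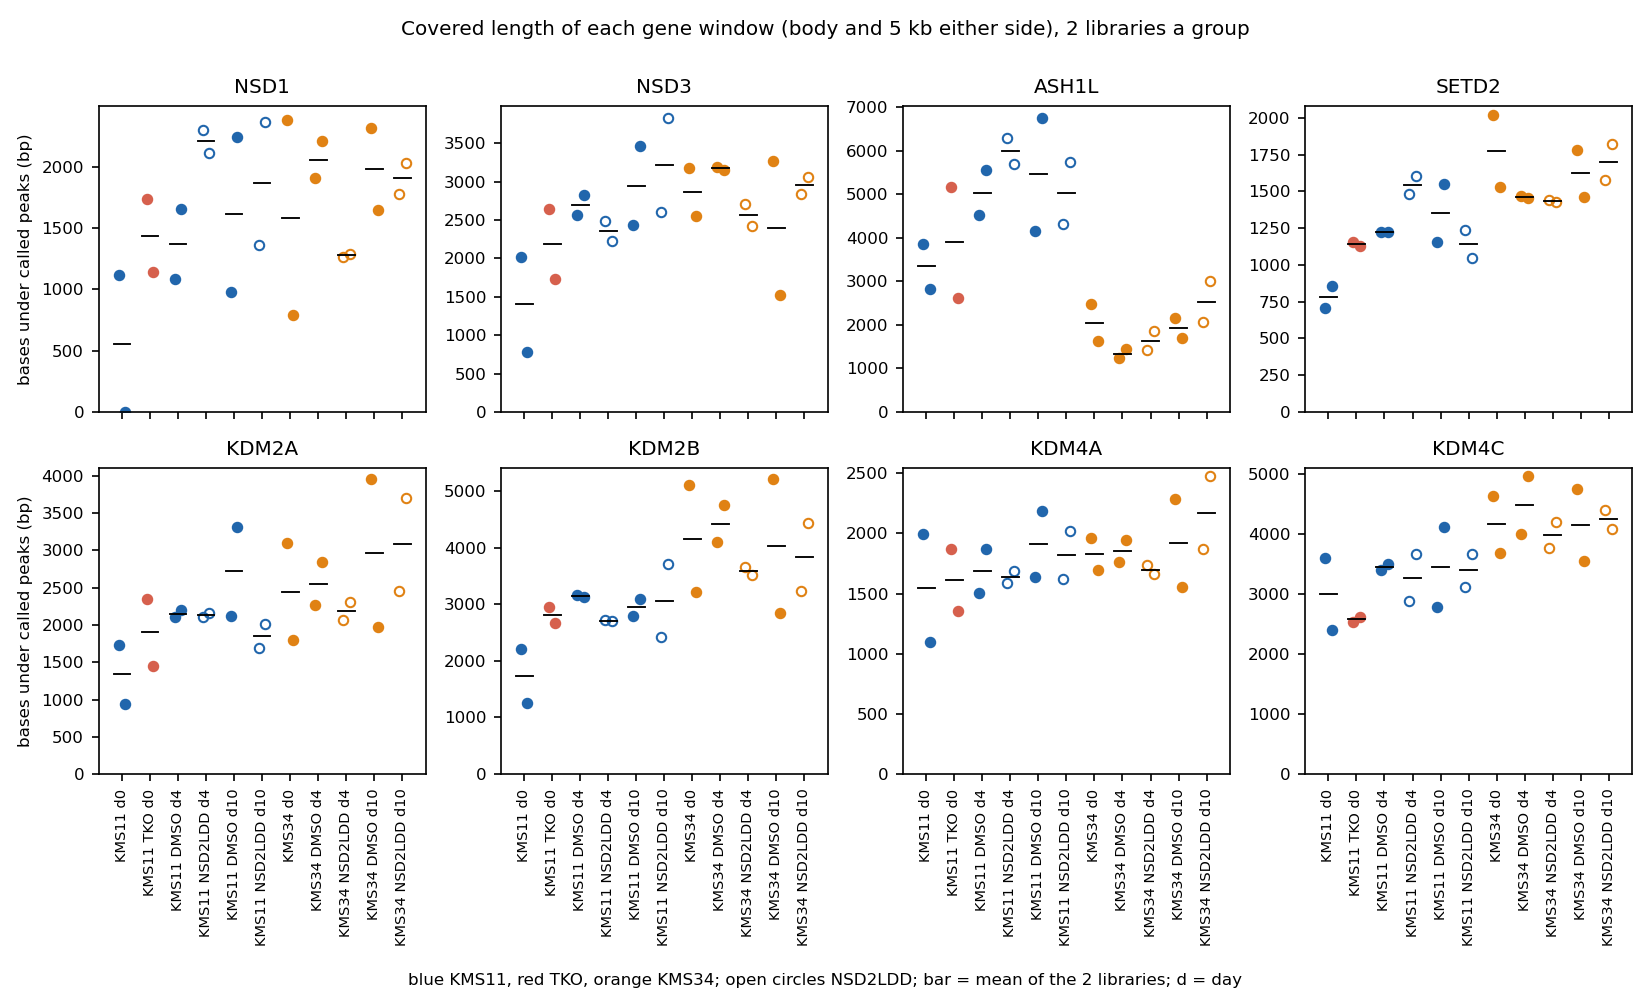
Bases under called peaks (y axis, bp) in the window of each gene for every library, by group along the x axis; the bar is the mean of the 2 libraries. ASH1L is at 1245 to 3004 bp in KMS34 and at 2829 to 6763 bp in KMS11 other than TKO, and NSD1 is at 0 in 1 day 0 library of KMS11.

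None of the 8 genes passed under NSD2LDD in either line. Differences were fitted with limma on log2(covered bp + 200), so a fold of a gene with little coverage is understated. Calls are at an adjusted p (Benjamini-Hochberg over 16738 genes) under 0.05. NSD2LDD minus DMSO called 0.0% of all genes in KMS11, 0.0% in KMS34, 0.0% for the mean of both lines and 0.0% for the difference between lines, with 586, 1044, 954 and 556 genes at an unadjusted p under 0.05. The 8 genes had 0, 1, 0 and 0 of these. Their median log2 difference was -0.055 in KMS11, against -0.014 over all genes, and 0.002 in KMS34, against -0.004.

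The window of the NSD2 paralog NSD1 reaches past the gene to a region at the starts of PRELID1 and RAB24, chr5:177303284-177304334. In KMS11 this region held 606 and 606 bp at day 4 and 433 and 1043 bp at day 10 in NSD2LDD. In DMSO it held 662 and 639 bp and 587 and 951 bp. Over the whole window, KMS11 libraries in NSD2LDD held 2301 and 2109 bp at day 4 and 1362 and 2365 bp at day 10. Those in DMSO held 1084 and 1657 bp at day 4 and 979 and 2242 bp at day 10. The ranges overlapped at day 10 and not at day 4, where 2 libraries against 2 can readily separate without a difference. The log2 difference over both days was 0.42 ± 0.34 (SE; adjusted p = 1.00 by limma), with a 95% interval from 0.81-fold to 2.21-fold. In KMS34 the NSD1 window held 1265 to 2032 bp in NSD2LDD and 1645 to 2310 bp in DMSO, a log2 difference of -0.30 ± 0.34. The difference between the 2 lines' effects, -0.72 ± 0.48, did not pass either (adjusted p = 1.00 by limma).

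NSD3, the other NSD2 paralog, differed by -0.05 ± 0.15 in KMS11 and 0.06 ± 0.15 in KMS34 on the log2 scale. ASH1L held 5712 and 6307 bp at day 4 and 4319 and 5738 bp at day 10 in NSD2LDD in KMS11, within the DMSO range of 4160 to 6763 bp. In KMS34 it held 1427 and 1855 bp at day 4 and 2071 and 3004 bp at day 10, against 1245 and 1441 bp and 2168 and 1691 bp in DMSO. Those ranges overlapped, with a log2 difference of 0.32 ± 0.13 (adjusted p = 0.728 by limma). SETD2 differed by 0.02 ± 0.15 in KMS11 and 0.04 ± 0.15 in KMS34.

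Among the erasers, the KDM2A difference in KMS11 was -0.27 ± 0.13 on the log2 scale (95% interval 0.68-fold to 1.01-fold). It was -0.03 ± 0.13 in KMS34. KDM2B differed by -0.11 ± 0.12 and -0.14 ± 0.12, KDM4A by -0.06 ± 0.09 and 0.05 ± 0.09, and KDM4C by -0.06 ± 0.10 and -0.04 ± 0.10, in KMS11 and KMS34. The narrowest intervals were those of KDM4A, 0.83-fold to 1.10-fold in KMS11 and 0.90-fold to 1.18-fold in KMS34. In bulk libraries a peak present in fewer cells and a weaker peak in each cell cannot be told apart.

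**Figure D2:**
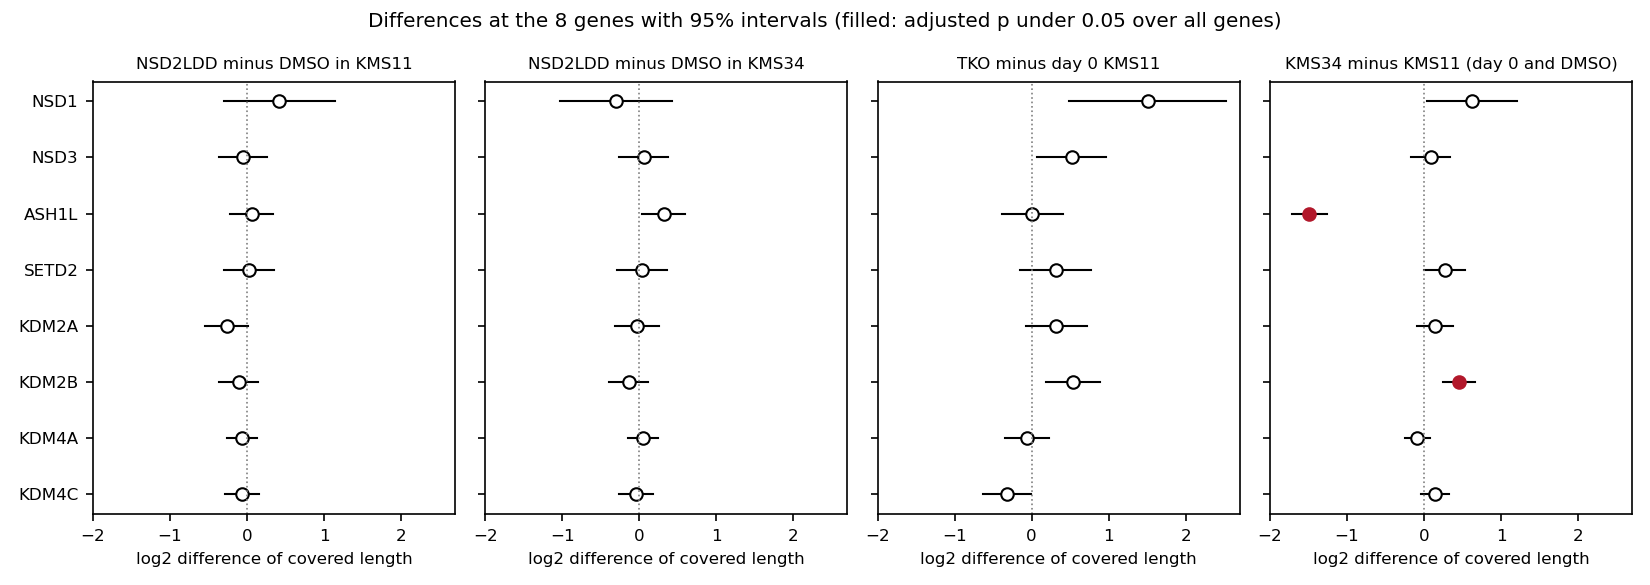
Log2 difference of covered length (x axis) at each gene in 4 comparisons, with 95% intervals from limma; filled points passed at an adjusted p under 0.05 over all genes. Filled points appear only for ASH1L (-1.49) and KDM2B (0.45) between the lines.

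Peak by peak, 62 merged regions lay in the 8 windows of 96166 in all, and 39 were called in at least 2 libraries and tested. Region values are fitted on log2(covered bp + 100). Under NSD2LDD, 0 of the 39 passed in each of 4 comparisons, where 0.0694% of all tested regions passed in KMS11, 0.986% in KMS34, 0.0318% for the mean of both lines and 0.00578% for the difference between lines. At an unadjusted p under 0.05 the 39 gave 2, 2, 3 and 2 regions, where 4.8%, 9.88%, 7.28% and 5.99% of all regions had such a p.

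The member region with the smallest p under NSD2LDD in KMS34 lies inside NSD3 at chr8:38295813-38296209, away from any listed gene end. It was called in 3 KMS34 libraries in NSD2LDD, with 173 and 164 bp at day 4 and 397 bp in replicate 2 at day 10. Replicate 1 at day 10 and all 18 other libraries of the series had no peak there. The log2 difference was 1.31 ± 0.35 (adjusted p = 0.0917 by limma), a value that depends on the bases added because DMSO was at 0. The region reached the minimum of 2 libraries only through NSD2LDD libraries of KMS34, so a positive sign was fixed in advance. Its p-values are therefore no test of a gain. Without KMS34 NSD2LDD day 10 replicate 1, which lacks the peak, the log2 difference was 1.85. Without replicate 2 of that group, which has its longest peak, it was 0.78. The difference from KMS11 was 1.32 ± 0.50 (adjusted p = 0.515 by limma).

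In KMS11 the smallest p belonged to a region just before KDM4C, chr9:6715791-6716777, at the start of the uncharacterised gene LOC124902117. It held 351, 625, 307 and 510 bp in DMSO and 0, 351, 0 and 435 bp in NSD2LDD (day 10 replicates 1 and 2, then day 4 replicates 1 and 2). Replicate 1 was without a peak at both days. The log2 difference was -1.28 ± 0.46 (adjusted p = 0.658 by limma), and in KMS34 it was -0.15 ± 0.46, with a peak in all 10 libraries.

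At the NSD1 starts, chr5:177133231-177134998, KMS11 libraries in NSD2LDD held 929, 1097, 1202 and 1193 bp. Those in DMSO held 392, 970, 422 and 662 bp, so only 1 DMSO library reached the range of NSD2LDD. The log2 difference was 0.82 ± 0.36 (adjusted p = 0.973 by limma), and it turned to -0.22 with windows around peak summits. In KMS34 it was -0.30 ± 0.36, and the difference between lines, -1.12 ± 0.51, had an adjusted p of 0.809 by limma and turned to 0.22 with those windows.

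In the TKO comparison, 0 of the 8 genes passed, where 4.69% of all genes passed (559 lower and 226 higher). At an unadjusted p under 0.05 there were 4 of the 8, against 16.1% of all genes. Their median log2 difference was 0.32, against -0.03 over all genes. Both values shift with the scaling: without it, the median over all genes moved by 0.14. The shortest peak list of the series is one of the 2 day 0 controls. With lists of equal length 1 of the 8 genes passed (KDM2B, 0.59, adjusted p = 0.0289 by limma), and with peak number as a covariate 1 passed (NSD1, 1.63, adjusted p = 0.0347). Where a library is left out, the group keeps 1 library, which is assumed to vary like the other groups.

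The NSD1 window held 1735 and 1140 bp in TKO and 1113 and 0 bp at day 0. Of these, 499 and 485 bp and 589 and 0 bp lay at the starts of PRELID1 and RAB24, outside NSD1. The log2 difference was 1.51 ± 0.48 (adjusted p = 0.0950 by limma). It was 0.39 without day 0 replicate 2, the library at 0, and 2.62 without day 0 replicate 1, where the library at 0 is the only control. The 4 DMSO libraries of KMS11 held 979 to 2242 bp, a range that contains both TKO values.

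KDM2B held 2955 and 2677 bp in TKO and 2216 and 1263 bp at day 0. The log2 difference was 0.54 ± 0.17 (adjusted p = 0.0862 by limma), and 0.28 (adjusted p = 0.337) against day 0 and DMSO together. SETD2 held 1155 and 1131 bp against 706 and 858 bp. Its log2 difference of 0.31 ± 0.22 (adjusted p = 0.569 by limma) was 0.66 without day 0 replicate 2 and -0.04 without day 0 replicate 1. NSD3 differed by 0.52 ± 0.21, KDM2A by 0.32 ± 0.19 and KDM4C by -0.32 ± 0.15. Leaving out 1 library moved them over 0.17 to 0.86, 0.17 to 0.47 and -0.52 to -0.13. NSD3 was highest, 0.86, without day 0 replicate 1 and lowest, 0.17, without day 0 replicate 2. KDM2A and KDM4C were nearest 0 without TKO replicate 1 and farthest without TKO replicate 2. The differences of ASH1L (0.01 ± 0.19) and KDM4A (-0.06 ± 0.13) were within 1 SE of 0.

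Of the 39 regions, 1 passed in the TKO comparison, where 4.07% of all tested regions passed. It lies 82.7 kb into ASH1L at chr1:155479825-155480445. A peak was called there in all 10 KMS11 libraries other than TKO, at 181 to 621 bp, with 398 and 297 bp at day 0. Neither TKO library and none of the 10 KMS34 libraries had one. The log2 difference between TKO and day 0 was -2.29 ± 0.34 (adjusted p = 0.000562 by limma), a value that depends on the bases added because TKO was at 0. The region entered the test only through KMS11 libraries other than TKO. With TKO at 0 its sign could therefore only be negative, and the p is no separate evidence of a loss. All groups share 1 spread, which the TKO and KMS34 groups at 0 narrow. The SE and p can therefore understate the scatter between libraries with the peak. Under NSD2LDD in KMS11 the region stayed called in all 4 libraries, at 369, 621, 551 and 587 bp, against 181, 402, 483 and 368 bp in DMSO (log2 difference 0.49 ± 0.24, adjusted p = 0.999 by limma).

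A similar layout occurred 253.9 kb into KDM4C at chr9:7011484-7012278. All 10 KMS11 libraries other than TKO had a peak there (257 to 652 bp), as did 1 TKO library (162 bp), and none of the 10 KMS34 libraries. TKO minus day 0 was -1.43 ± 0.45 (adjusted p = 0.114 by limma), with the KMS34 groups at 0 again in the shared spread. Without TKO replicate 2, the library with the peak, the difference was -2.27, a fit that leaves 1 TKO library at 0. With both TKO libraries it passed against day 0 and DMSO together (-1.43, adjusted p = 0.0308 by limma) and with lists of equal length (-2.13, adjusted p = 0.000171). Under NSD2LDD in KMS11 it was 0.29 ± 0.32.

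The calls among these genes came from the comparison of the lines. Of the 8 genes, 2 passed (1 lower and 1 higher in KMS34), where 35.6% of all genes passed (2461 lower and 3499 higher). A share of 58.7% of those calls was higher in KMS34, and it was 81.9% without scaling and 49.3% with quantile normalization. Removing the scaling moved the median over all genes by 0.22. The median difference of the 8 genes was 0.14, against 0.03 over all genes.

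ASH1L was lower in KMS34. Its window held 1245 bp at the lowest, 1656.5 bp at the median and 2471 bp at the highest in the 6 day 0 and DMSO libraries of KMS34. The same values in KMS11 were 2829, 4345.5 and 6763 bp. The log2 difference was -1.49 ± 0.11 (adjusted p = 3.3e-08 by limma), or 0.30-fold to 0.42-fold as a 95% interval. Of 42 genes within 500 kb of the ASH1L window, 22 were also called lower in KMS34 and 1 higher, with a median log2 difference of -0.28, where 14.7% of all genes were lower and 20.9% higher.

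Most of the ASH1L difference lay inside the gene. Bases away from gene starts and ends came to 2638 ± 1130 bp in KMS11 and 524.5 ± 359 bp in KMS34 (mean ± SD, n = 6 each), and those at starts and ends, the end of a pseudogene inside ASH1L included, to 1978 ± 299 and 1249 ± 229 bp. The promoter region, chr1:155562003-155563636, was called in all 22 libraries and was lower in KMS34 by a log2 difference of -0.32 ± 0.07 (adjusted p = 0.00322 by limma). With windows of 1 kb around the gene's ends alone the difference was -0.25.

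Of the 16 ASH1L regions, 10 were called only in KMS11 libraries, TKO included, and 1 only in KMS34, where 19.6% and 38.6% of all regions were. Of the 10, 6 were called in a single library. Among regions called in at least 2 libraries, 4 of 10 in ASH1L were only in KMS11 and 1 only in KMS34, against 13.8% and 28.1% of all such regions. The region 128.9 kb from the start, chr1:155433573-155434313, overlaps the end of the pseudogene POU5F1P4. It was called in 12 of 12 KMS11 libraries and 0 of 10 KMS34 libraries (log2 difference -2.95 ± 0.18, adjusted p = 7.23e-09 by limma). With KMS34 at 0 the size depends on the bases added, and it ran from -4.54 to -1.70 over the alternatives. This region entered the test only through KMS11, so its sign was fixed in advance. The KMS34 groups at 0 also narrow the shared spread, so the p can understate the scatter. The region at 96.3 kb, chr1:155466023-155467020, was called in 11 of the 12 and in none of KMS34. It is missing from day 0 replicate 2 of KMS11. The region at 90.7 kb, chr1:155471481-155472688, was called in 8 KMS34 libraries too, at 222 to 783 bp against 326 to 1057 bp in KMS11. The region at 58.4 kb, chr1:155503959-155504894, was called in 2 KMS34 libraries, and both were day 10 NSD2LDD libraries (296 and 294 bp). NSD2LDD minus DMSO there in KMS34 was 1.01 ± 0.38 (adjusted p = 0.388 by limma). These values show that KMS11, TKO included, carried several internal ASH1L peaks that KMS34 libraries mostly lacked, with 1 of them absent from TKO.

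**Figure D3:**
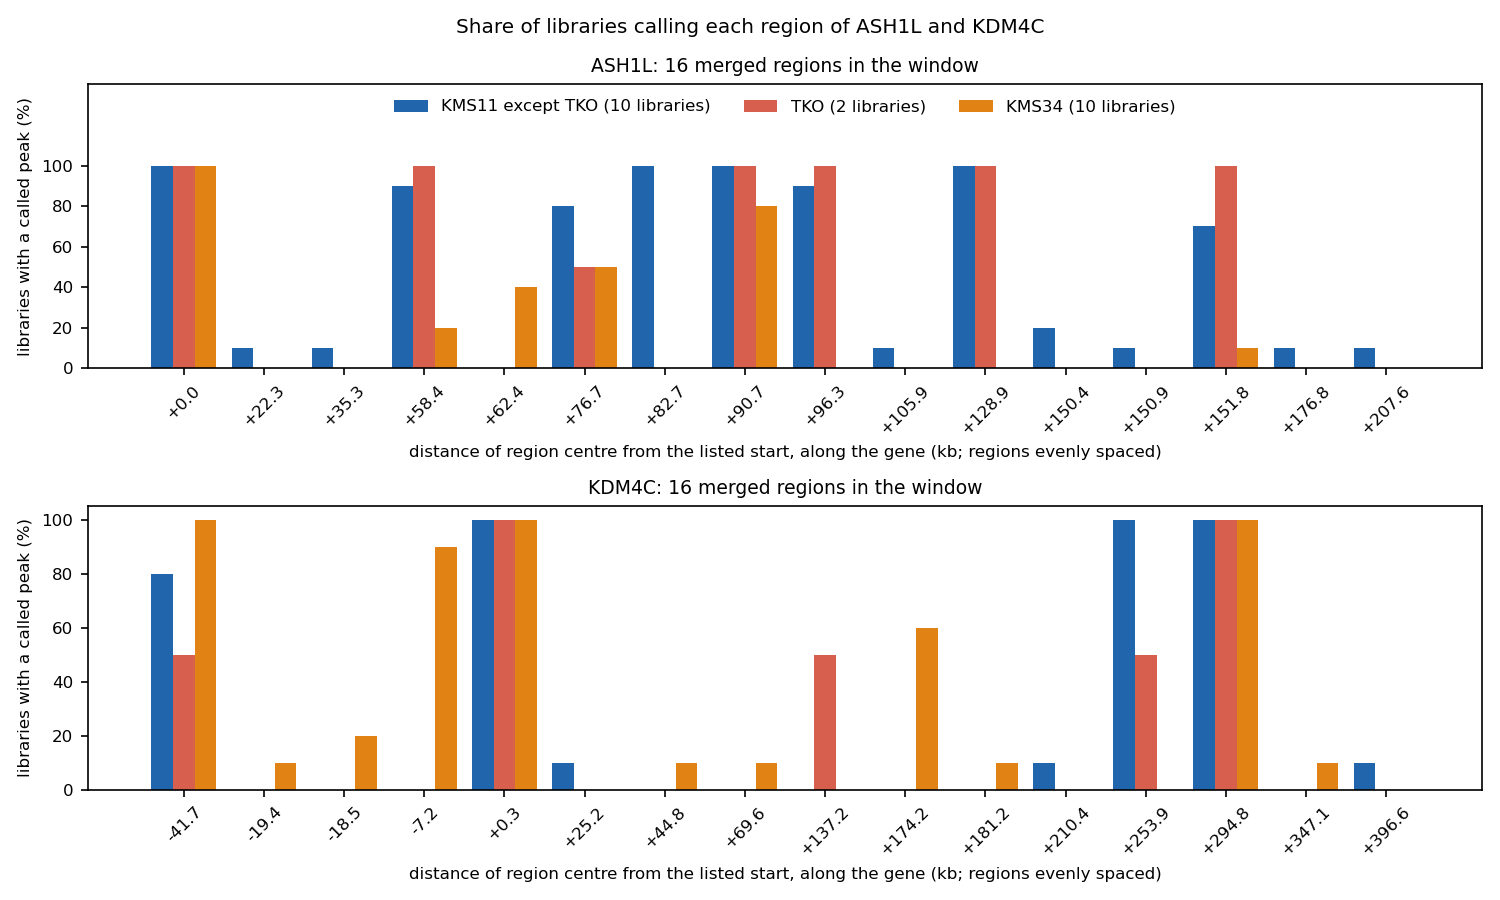
Share of libraries with a called peak (y axis, %) for each region of ASH1L and KDM4C, ordered by distance from the listed start (x axis labels, kb). At 82.7 kb in ASH1L all KMS11 libraries other than TKO have a peak and no TKO or KMS34 library does, and in KDM4C regions of either line stand beside 3 regions near or inside the gene that KMS11 and KMS34 share.

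KDM2B was higher in KMS34. It held 2854, 4422 and 5212 bp (lowest, median and highest of 6) against 1263, 2945.5 and 3164 bp in KMS11, ranges that overlap in part. The log2 difference was 0.45 ± 0.10 (adjusted p = 0.0016 by limma). Of 15 tested genes within 500 kb of KDM2B, 7 were higher in KMS34 and 2 lower (median 0.36). None of its 7 tested regions passed alone. Of its 10 regions, 4 were called only in KMS34, against 38.6% of all regions, and 3 of these 4 in a single library. A number of 0 were only in KMS11, against 19.6% of all regions. Among regions called in at least 2 libraries, 1 of 7 was only in KMS34, against 28.1% of all such regions. The region over the internal start, chr12:121466692-121468088, and one inside the gene, chr12:121535917-121538378, were called in all 22 libraries. A listed start of the long form, within chr12:121579962-121580750, was called in 20 of 22, missing from 2 KMS11 libraries. The outermost listed start, at chr12:121581023, was called in none, and the listed start at chr12:121579659 in 1.

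The KDM4C window did not pass between the lines (log2 0.14 ± 0.08, adjusted p = 0.215 by limma), and 2 of its 7 tested regions did, in opposite directions. The region 253.9 kb from the start was lower in KMS34 by -2.40 ± 0.26 (log2, adjusted p = 2.19e-06 by limma). The region 7.2 kb before the listed start but within the annotated gene, chr9:6750331-6751246, was called in 9 of 10 KMS34 libraries and no KMS11 library (2.18 ± 0.35, adjusted p = 0.000166 by limma). Each has a line at 0, so its size depends on the bases added. Each also entered the test only through the other line, so its sign was fixed in advance. Groups at 0 narrow the shared spread behind its p. The alternatives ran from -3.92 to -1.31 for the former and from 0.30 to 3.49 for the latter. With lists of equal length the latter did not pass (0.30, adjusted p = 0.631 by limma). Of the 16 KDM4C regions, 5 were called only in KMS11 and 8 only in KMS34, where 19.6% and 38.6% of all regions were. Of these 13, 9 were called in a single library. Among KDM4C regions called in at least 2 libraries, 1 of 7 was only in KMS11 and 3 only in KMS34. The shares of all such regions were 13.8% and 28.1%. Both the promoter region, chr9:6757058-6759449, and a region 294.8 kb from the start, chr9:7052536-7053080, were called in all 22 libraries.

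At the NSD1 starts the region was higher in KMS34, with a log2 difference of 1.17 ± 0.30 (adjusted p = 0.00596 by limma). At day 0 and in DMSO, the KMS34 libraries held 512 to 1557 bp and the KMS11 libraries other than TKO 0 to 970 bp. With all lists shortened to the length of the shortest, the difference was -1.35 and did not pass. The whole NSD1 window, the starts of PRELID1 and RAB24 included, did not pass (0.62 ± 0.28, adjusted p = 0.0938 by limma). NSD2 itself was at 0.80 ± 0.29 (adjusted p = 0.0433 by limma), and -0.72 with lists of equal length.

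SETD2 had 1 region in its window, over its start at chr3:47163123-47165277 and called in all 22 libraries. It held 1455, 1501 and 2016 bp in KMS34 and 706, 1188 and 1552 bp in KMS11 (lowest, median and highest of 6). Of 14 tested genes within 500 kb, 7 were higher in KMS34 and 1 lower (median 0.65). As a region it passed (0.35 ± 0.11, adjusted p = 0.0221 by limma), and as a gene window with the same bases and the scaling of the gene table it did not (0.27 ± 0.13, adjusted p = 0.111 by limma). KDM2A passed at the start of its long form, chr11:67118393-67119864 (0.43 ± 0.16, adjusted p = 0.0448 by limma), and not over the window (0.14 ± 0.11). NSD3 (0.09 ± 0.12) and KDM4A (-0.09 ± 0.08) did not pass, and KDM4A turned to 0.13 without scaling. The 2 KDM4A regions in all 22 libraries are its own start, chr1:43649686-43650917, and chr1:43706703-43708088 at the start of the neighbouring ST3GAL3.

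Over all 39 tested regions, 12 passed between the lines (8 lower and 4 higher in KMS34), where 34.3% of all regions passed. At gene starts or ends 5 of 16 passed, against 29.3% of all such regions, and elsewhere 7 of 23, against 36.1%. Of the 62 regions, 12 (19.4%) were called in all 22 libraries, against 14.4% of all regions, and 9 of these 12 lay at a start or end. Another 23 (37.1%) were called in 1 library only, against 28.1%. NSD3 had 6 regions, of which 1 at the shared end with PLPP5, chr8:38268160-38269660, and 1 beyond its other end, chr8:38385846-38387062, were in all 22 libraries. TKO minus day 0 at the former was 0.81 ± 0.25 (adjusted p = 0.106 by limma), where day 0 replicate 2 held 231 bp and the other KMS11 libraries 899 to 1489 bp.

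**Figure D4:**
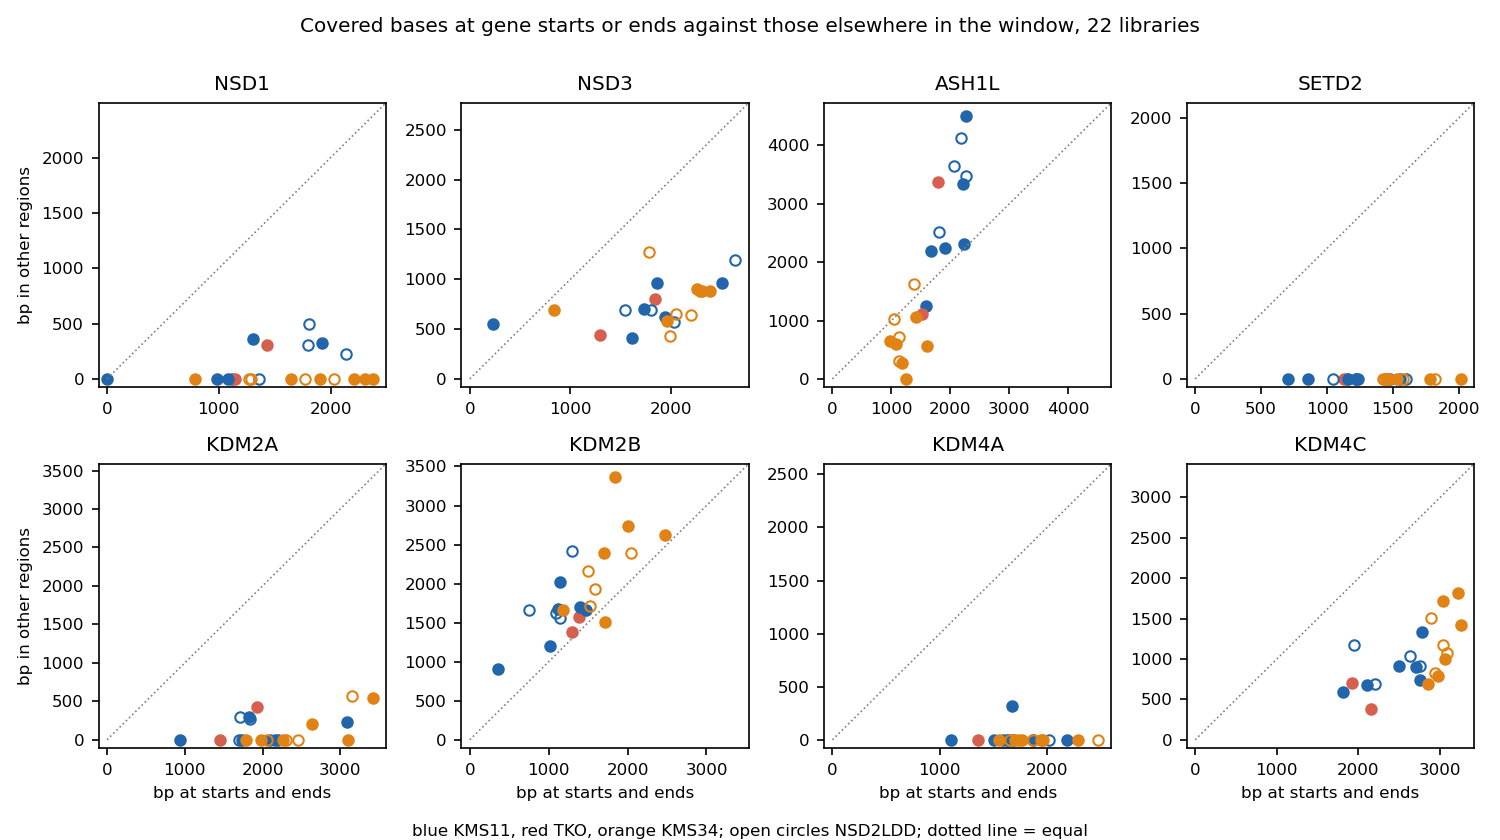
Covered bases at gene starts or ends (x axis, bp) against those in all other regions of the window (y axis, bp) for each of 22 libraries. ASH1L separates the lines mainly along the y axis, SETD2 has no bases away from starts and ends, and KDM4A has them in 1 library.

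A list of 23 other H3K36 genes (further enzymes, proteins that read the mark, and elongation factors tied to SETD2) gave no call under NSD2LDD or in TKO, with median log2 differences of -0.02 in KMS11, -0.05 in KMS34 and 0.07 in TKO. At an unadjusted p under 0.05 there were 1 in KMS11, 1 in KMS34 and 6 in TKO, where 3.5%, 6.24% and 16.1% of all genes had such a p. The smallest p in KMS11 was that of PWWP2A, a reader protein (0.38 ± 0.17), and in KMS34 that of IWS1, an elongation factor (-0.23 ± 0.11). In TKO they were PRDM9, the methyltransferase of meiotic recombination sites (-0.54 ± 0.17, adjusted p = 0.0828 by limma), and MSL3, a chromodomain protein (0.50 ± 0.16, adjusted p = 0.0918 by limma). Between the lines 5 of the 23 passed, where 35.6% of all genes did. Of these, 3 were lower in KMS34, namely KDM8 (-1.17 ± 0.12), the methyltransferase SMYD2 (-0.68 ± 0.10) and PWWP2B (-0.70 ± 0.13). PRDM9 (0.95 ± 0.10) and PWWP2A (0.61 ± 0.14) were higher.

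For each gene the most similar profile on another chromosome was found by Pearson's r of scaled coverage over the 22 libraries, which share their list lengths and line. ASH1L was most like MSI2 (r = 0.97, with 0.76 within KMS11 and 0.68 within KMS34), and NSD1 was most like GPATCH3 (0.93, 0.94 and 0.88). KDM4C was followed most closely by LRRC24 (0.89), KDM2B by ENKD1 (0.85), NSD3 by LOC124900301 (0.82) and KDM2A by PDE4A (0.82). The best values of SETD2, with H2BC17 (0.76), and KDM4A, with ABAT (0.73), were lower. Covered length also followed list length: r with log2 peak number was 0.53 to 0.86 for 7 of the genes and -0.41 for ASH1L. This r pools the lines, and KMS34 had longer lists at the median and less ASH1L coverage. No r with peak number was taken within a line.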

How the data were processed

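ATAC-seq was deposited as 1 narrowPeak list per library. Per the submitters' processing notes, fastp, BWA, SAMtools, Picard, MACS3 and deepTools were used on hg38. For versions, the Tn5 shift, duplicate removal and calling settings: not given in the sources used here. Columns of the authors' deposited lists hold peak positions, a score, a fold enrichment (ratio over the local background) and the -log10 p and -log10 q of each peak. The -log10 q ranked and filtered peaks within a list. The deposited score, the -log10 p and the deposited ratio entered no test.

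Overlapping peaks of any library (autosomes and X) were joined, giving 96166 regions. Covered bases per region, or per RefSeq (GRCh38.p14) gene body with 5 kb either side, gave log2(bp + 200) for a gene and log2(bp + 100) for a region. From each library its median at features covered in every library was subtracted. Exons were not analysed here. Features called in at least 2 libraries (69187 regions, 16738 genes) were fitted with limma 3.58.1 (trend, robust) in R 4.3.3, with 1 mean per group, using all 22 libraries, and p-values were adjusted by Benjamini-Hochberg (threshold 0.05). NSD2LDD was compared with DMSO over both days (4 libraries against 4 a line), TKO with day 0 KMS11 (2 against 2) and the lines over day 0 and DMSO (6 against 6). Coverage and fit were tested on simulated data. Python 3.11.15 was used otherwise. Alternatives changed the peaks used, list length, scaling, model, bases added, minimum of libraries, window and replicates.

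The genes and lists were chosen with earlier results of these data known. Named were the 8 genes and NSD2, their regions that passed, had the 3 smallest p in a comparison or were called in all libraries, members of the other list that passed or had the 2 smallest p, and the 1 most similar gene. The POU5F1P4 overlap, the KDM2B starts of the long form, the rank of peaks, the genes within 500 kb and the shares called in 1 line were chosen after their values were seen. Markers covered plasma, B, T, myeloid, erythroid, and stromal and endothelial cells (1 stromal or endothelial gene was in all libraries, and 0 myeloid or erythroid genes). One marker is not reported here. Libraries of 1 group differed at 14414 genes or more, so none was a duplicate file.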

Additional observations from a re-analysis of the deposited data

How the results depend on the processing

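None of the 8 genes passed under NSD2LDD in any alternative run, and of the 39 regions at most 1 passed in KMS34. That count was 0 as reported, 1 with lists of equal length (the ASH1L region at 90.7 kb), 1 with windows around summits (NSD3) and 0 to 1 leaving out each library. In TKO the count of genes, 0 as reported, was 1 with lists of equal length (KDM2B), 1 with peak number as a covariate (NSD1) and 0 to 2 leaving out each library, with 2 (NSD1 and NSD3) without KMS11 day 0 replicate 1. Of regions, 1 as reported, 3 passed with -log10 q of at least 5, 3 with lists of equal length, 3 with the covariate, 2 against day 0 and DMSO together and 1 to 6 leaving out each library (6 without KMS11 day 0 replicate 1, 2 without TKO replicate 2). The ASH1L region without a peak in TKO passed in all 14 alternatives (log2 -3.79 to -1.22), and leaving out each library gave -2.44 to -2.14. The limits set by groups at 0, and by its entry only through KMS11 libraries other than TKO, hold for these fits too. Between the lines, genes gave 1 in place of 2 at gene ends only, where KDM2B was not tested, and up to 3 elsewhere. SETD2 passed without scaling, with the covariate and without KMS11 day 0 replicate 2, and NSD1 for the gene body alone and without KMS11 day 0 replicate 1 or KMS34 day 0 replicate 2. Regions gave 6 in place of 12 with windows around summits, up to 14 in other alternatives and 10 to 14 leaving out each library. ASH1L passed in all 14 alternatives (-1.66 to -0.25) and KDM2B in all 13 (0.29 to 0.67).

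With lists of equal length the line difference was -1.11 at NSD1, -1.35 at its start region and -0.72 at NSD2, and TKO minus day 0 at the NSD1 start region was -0.25, as with -log10 q of at least 5 (-0.25). With windows around summits that region gave -0.22 for NSD2LDD in KMS11 and 0.22 for the difference between lines. At gene ends only, NSD2LDD at ASH1L was -0.028 in KMS34 and -0.043 for both lines, and TKO at KDM2A -0.14. KDM4A between the lines was 0.13 without scaling and KDM4C -0.058 with 50 kb either side. SETD2 in TKO ranged from -0.0446 to 0.66 leaving out each library. The cause of these changes was not tested. Calls between the lines were lost at the KDM2A start region in 6 of 12 alternatives and 13 of 22 left-out libraries, at the SETD2 region in 4 and 4, at the ASH1L region at 151.8 kb in 3 and 7, at the NSD1 start region in 4 and none, at the ASH1L promoter region in 3 and none, at the ASH1L region at 90.7 kb and the KDM4C region before its start in 1 and none each, and at NSD2 in 8 of 14 and 12 of 22.

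The number of genes called over the alternatives was 209 to 1370 in TKO, 2806 to 9146 between the lines, 0 to 4 under NSD2LDD in KMS11, 0 to 47 in KMS34, 0 to 12 for both lines and 0 to 9 for their difference. For regions it was 2087 to 3747, 14718 to 24198, 0 to 590, 6 to 1613, 2 to 1373 and 0 to 1356. Replicate numbers showed no pairing common to all groups (r of deviations -0.21 to 0.27 over 55 pairs of groups, 9 above 0.1). With the replicate number as 1 block over all groups the counts were 0, 0, 0, 0, 0 and 2 genes and 0, 0, 0, 0, 1 and 12 regions. Neither can exclude pairing within a line and day. At day 10 in KMS11, replicates 1 and 2 covered 17860878 and 26682231 bp in DMSO and 17954200 and 27115724 bp in NSD2LDD. In KMS34 they covered 31843324 and 20892046 bp in DMSO and, in the opposite order, 25438301 and 29096614 bp in NSD2LDD. Precision is limited by unknown depth and by 2 libraries a group.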
